A study of Mus musculus with 5 samples.

Results

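The insulin-like growth factor axis is described here through 9 of the 56748 genes in the deposited count table. They are the ligand gene Igf1, the receptor genes Igf1r and Igf2r, and 6 binding-protein genes, Igfbp2 to Igfbp7. The genes were matched by symbol, each to 1 row, and all 9 passed the low-count filter that left 17724 genes. The set was selected on the CPM values of Igfbp5, which were lower with the transgene, and was filled with the other genes of its family. The difference between genotypes is therefore given for the members as a description, with no test.

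RNA came from CD11b-positive brain cells of 5 mice, taken at 7 months of age after removal of the cerebellum, with 1 library per mouse. CD11b is an integrin on the surface of microglia and further myeloid cells. The 3 Cd5l-transgenic libraries (replicates 1, 2 and 3) were from 5xFAD/Cd5l tg/wt mice, in which the human PDGF-B promoter drives mouse Cd5l on a 5xFAD background. The 2 libraries set against them (replicates 1 and 3) were from 5xFAD mice, a line whose transgenes lead to amyloid plaques, and the 5xFAD alleles are common to both groups. Wild-type mice named in the design were not analysed here. CD11b-positive cells are named in the titles and in the RNA extraction notes, while the library descriptions speak of brain tissue. No label states that the mice were from separate litters or cohorts, so the spread between libraries is the only error available.

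Insulin-like growth factors are secreted peptides that act through the tyrosine kinase encoded by Igf1r, and the receptor encoded by Igf2r clears IGF-II and carries lysosomal enzymes. Binding proteins hold the ligands outside the cell, which can lengthen their life, keep them from the receptor or release them when proteases cut the carrier. In the brain, microglia make IGF-I, and microglia around plaques are known for raised Igf1. Igfbp5 encodes a carrier that also attaches to extracellular matrix.

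For the 3 members whose libraries did not overlap between genotypes, the 250 bases before the start site are shown, from RefSeq on GRCm38.p6, so that the regulatory letters of the gene that was lower can be read beside those of the genes that were higher. This build is not that of the count table. Capitals mark matches on either strand to the TATA box TATAAA, the CCAAT box, the E-box CANNTG and the AP-2 site GCCNNNGGC. The first is at chr1:72874866-72875115 on the minus strand, the second at chr11:7213924-7214173 on the minus strand and the third at chr11:99040994-99041243 on the plus strand.
Igfbp5: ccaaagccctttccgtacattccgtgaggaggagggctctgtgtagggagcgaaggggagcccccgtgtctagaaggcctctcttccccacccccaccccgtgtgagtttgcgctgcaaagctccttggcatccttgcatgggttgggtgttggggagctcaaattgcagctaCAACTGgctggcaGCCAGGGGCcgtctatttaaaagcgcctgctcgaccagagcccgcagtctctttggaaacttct
Igfbp3: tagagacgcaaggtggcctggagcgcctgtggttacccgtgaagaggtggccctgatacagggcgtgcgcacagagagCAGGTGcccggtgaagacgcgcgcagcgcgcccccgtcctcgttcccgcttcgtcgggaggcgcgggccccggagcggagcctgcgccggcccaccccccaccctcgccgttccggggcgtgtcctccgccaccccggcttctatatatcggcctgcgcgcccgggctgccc
Igfbp4: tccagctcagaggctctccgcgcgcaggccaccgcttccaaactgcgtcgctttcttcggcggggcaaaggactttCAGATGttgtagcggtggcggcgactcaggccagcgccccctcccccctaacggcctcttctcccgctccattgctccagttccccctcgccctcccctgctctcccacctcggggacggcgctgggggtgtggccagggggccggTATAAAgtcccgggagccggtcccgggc

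Positions are counted back from the start site, with -1 as the last base before it. The Igfbp5 window held 1 E-box at -77 and 1 AP-2 site at -64, and the AP-2 letters were in 13.8% of the 32536 different promoter windows of this length. The Igfbp4 window held the TATA box letters at -28, which 12.3% of windows hold, and an E-box at -174. The Igfbp3 window held an E-box at -172. Only the exact letters TATAAA were searched, so near stretches such as tatttaaa for Igfbp5 and tatatat for Igfbp3 are not marked. E-boxes were in 66.2% of all windows. All 3 were richer in G and C than the median window (52.4%), at 58.8% for Igfbp5, 73.2% for Igfbp3 and 69.2% for Igfbp4. The FOXO letters GTAAACA, present in 3.17% of windows, and the cyclic AMP response element TGACGTCA, in 1.56%, had no match in the windows of any of the 9 members. A match or its lack in such a window describes letters, and no binding was measured.

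The libraries held between 30798377 and 34794617 counts, and 1 count was worth 0.0282 to 0.0339 CPM (counts relative to library size, scaled by TMM factors). No pair of libraries agreed within sampling noise (chi-square of at least 21.5 per degree of freedom), so all were kept. Cd5l had 7230, 10680 and 6438 counts in the Cd5l-transgenic libraries and 45 and 9 in the 5xFAD libraries, and the counts do not separate transgene from endogenous gene. Itgam, which encodes CD11b, stood between 306 and 363 CPM with the transgene and at 344 and 355 CPM in 5xFAD. The 8 microglial markers summed to between 24128 and 26062 CPM with the transgene and to 23836 and 25307 CPM in 5xFAD. Of 12 marker lists of cell types, 4 (monocyte, mural, endothelial and neuron) had a sum above both 5xFAD libraries in all transgenic ones, 0 had a lower one and 8 overlapped. Neuron markers stayed low, at 6.75 to 14.7 CPM in sum with the transgene and 5.05 and 5.28 CPM in 5xFAD, and of the monocyte markers S100a4 was at 0 in every library. 5xFAD replicate 3 stood apart in choroid plexus markers, 5xFAD replicate 1 in plaque-associated microglial markers and Cd5l-transgenic replicate 2 in oligodendrocyte and endothelial markers. In bulk RNA, fewer cells of a type and less RNA per cell cannot be told apart.

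Igfbp5 (ENSMUSG00000026185, chromosome 1, 72897091 to 72914043, minus strand, GRCm39) was 2.18-fold lower in the transgenic libraries than in 5xFAD, the pattern for which it was chosen. It had 20.5, 27.4 and 25.0 CPM in Cd5l-transgenic replicates 1, 2 and 3, against 55.9 and 49.9 CPM in 5xFAD replicates 1 and 3. These rest on 635, 874 and 825 counts with the transgene and 1649 and 1767 counts in 5xFAD. The groups lay well apart, with every transgenic library below both 5xFAD libraries. The mean was 24.3 ± 3.49 CPM (SD, n = 3) with the transgene and 52.9 ± 4.25 CPM (SD, n = 2) in 5xFAD, a ratio of 0.460 and an edgeR log2 fold change of -1.12 (SE 0.14).

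The difference of Igfbp5 was nearly the same whichever library was left out, with log2 fold changes from -1.20 to -1.01. It lay between -1.22 and -1.09 under the other scalings, filters and fits. Igfbp5 was chosen for this difference in the same libraries, so these ranges describe it and are no support for it. Of the 12 marker lists, 0 had a lower sum in all 3 transgenic libraries than in both 5xFAD libraries. Choroid plexus markers summed to 266, 563 and 369.8 CPM with the transgene, and to 466 and 2875 CPM in 5xFAD. Plaque-associated microglial markers summed to 7553, 7157 and 7066 CPM with the transgene and to 14054 and 7067 CPM in 5xFAD. Taken singly, 1 of these 9 markers was lower without overlap, against 8.69% of all tested genes, and in the other lists 0. It was Itgax, at 777, 750 and 736 CPM with the transgene and 1503 and 834 CPM in 5xFAD. Mural markers summed to 411, 581 and 428 CPM with the transgene and to 313 and 335 CPM in 5xFAD. Which cells held the Igfbp5 transcripts was not tested, nor was the part of cell make-up in its difference.

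**Figure D1:**
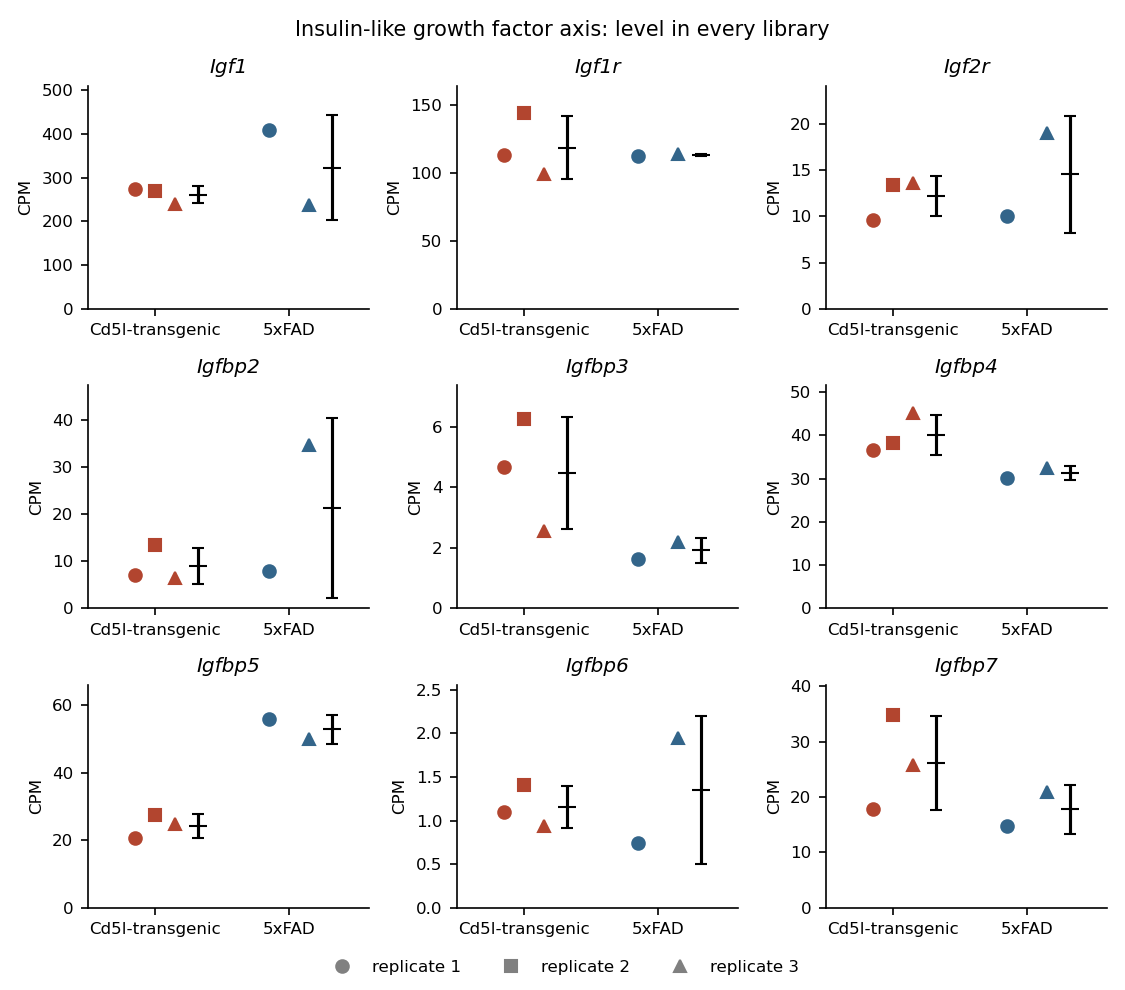
Level of each of the 9 genes in CPM (y axis, from 0), with 1 point per library, Cd5l-transgenic at left and 5xFAD at right; the bar beside each group is the mean ± SD (n = 3 and n = 2). Igfbp5 is lower, and Igfbp3 and Igfbp4 are higher, in all 3 transgenic libraries than in both 5xFAD libraries, and the other 6 genes overlap.

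Igfbp2 ends 5.46 kb from Igfbp5 on the same chromosome, on the opposite strand, and did not share its pattern. Igfbp2 (chromosome 1, 72863662 to 72891633), which encodes a carrier abundant in choroid plexus and cerebrospinal fluid, had 7.11, 13.5 and 6.51 CPM with the transgene, against 7.83 and 34.7 CPM in 5xFAD. Only 5xFAD replicate 3 stood high, and the other 5xFAD library lay inside the transgenic range. That library also had the highest choroid plexus sum (2875 CPM over 9 markers, all detected, against 266 to 563 CPM with the transgene and 466 CPM in the other 5xFAD library) and the highest ependymal sum (121 CPM over 5 markers, against 20.9 to 31.4 CPM with the transgene and 16.3 CPM in the other 5xFAD library). The log2 fold change of Igfbp2 was -1.25 (SE 0.66) over all libraries and 0.20 without 5xFAD replicate 3. The part of choroid plexus RNA in this value was not tested.

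The other nearby genes on that side of Igfbp5 were Rpl37a, Smarcal1, Marchf4, Xrcc5 and Pecr, between 144 and 574 kb away. Rpl37a, a ribosomal protein gene of a kind whose reads can be shared with pseudogenes, averaged 259 ± 25.8 CPM (SD, n = 3) with the transgene and 237 ± 12.5 CPM (SD, n = 2) in 5xFAD. Smarcal1, which encodes a DNA-annealing helicase, averaged 43.3 ± 2.02 CPM with the transgene and 43.6 ± 1.19 CPM in 5xFAD. Marchf4, a ubiquitin ligase gene, was barely detected, at 0.668 ± 0.0588 CPM with the transgene and 1.55 ± 1.72 CPM in 5xFAD, with 0.339 and 2.77 CPM in 5xFAD replicates 1 and 3 and a log2 fold change of -1.28 (SE 0.80). Xrcc5, the DNA repair protein Ku80, was slightly lower in all 3 transgenic libraries without overlap (10.8 ± 0.969 CPM, against 11.9 ± 0.289 CPM in 5xFAD, log2 fold change -0.15), and Pecr overlapped (-0.12). The 6 nearest measured genes, Igfbp2 included, had a median log2 fold change of -0.13, against -0.03 over all tested genes, while Igfbp5 stood at -1.12.

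Igf1, the ligand (ENSMUSG00000020053, chromosome 10, 87694127 to 87772904), was the most abundant of the 9 genes. It had 275, 269.7 and 239.7 CPM with the transgene, against 408 and 238 CPM in 5xFAD. One 5xFAD mouse, replicate 1, was high, while replicate 3 was at the level of the lowest transgenic library. The means were 261 ± 19.0 CPM (SD, n = 3) with the transgene and 323 ± 120.1 CPM (SD, n = 2) in 5xFAD, for a log2 fold change of -0.31 (SE 0.23). Without 5xFAD replicate 1 it was 0.14, and without 5xFAD replicate 3 it was -0.64. The plaque-associated markers, a microglial state that is known to include Igf1, summed to 14054 CPM in 5xFAD replicate 1 and to between 7066 and 7553 CPM in the other 4 libraries. The part of that state in the Igf1 value was not tested.

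Igf1r, the signalling receptor (chromosome 7, 67602575 to 67883416), had nearly the same mean in both genotypes but varied between transgenic mice. It had 113, 144 and 99.3 CPM with the transgene, against 113 and 114 CPM in 5xFAD, so the 5xFAD libraries lay inside the transgenic range. Its log2 fold change was 0.07 (SE 0.16), with the sign turning to -0.08 without Cd5l-transgenic replicate 2. Igf2r, the IGF-II and mannose 6-phosphate receptor (chromosome 17, 12901293 to 12988551), had 9.63, 13.4 and 13.6 CPM with the transgene, against 10.03 and 18.99 CPM in 5xFAD. Here too 5xFAD replicate 3 was the high library, and the log2 fold change of -0.26 (SE 0.30) became 0.28 without it and -0.64 without 5xFAD replicate 1. The antisense gene Airn overlaps Igf2r and had 17, 20 and 5 counts with the transgene and 9 and 28 counts in 5xFAD. The use of strand in counting is not stated in the labels or the table.

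**Figure D2:**
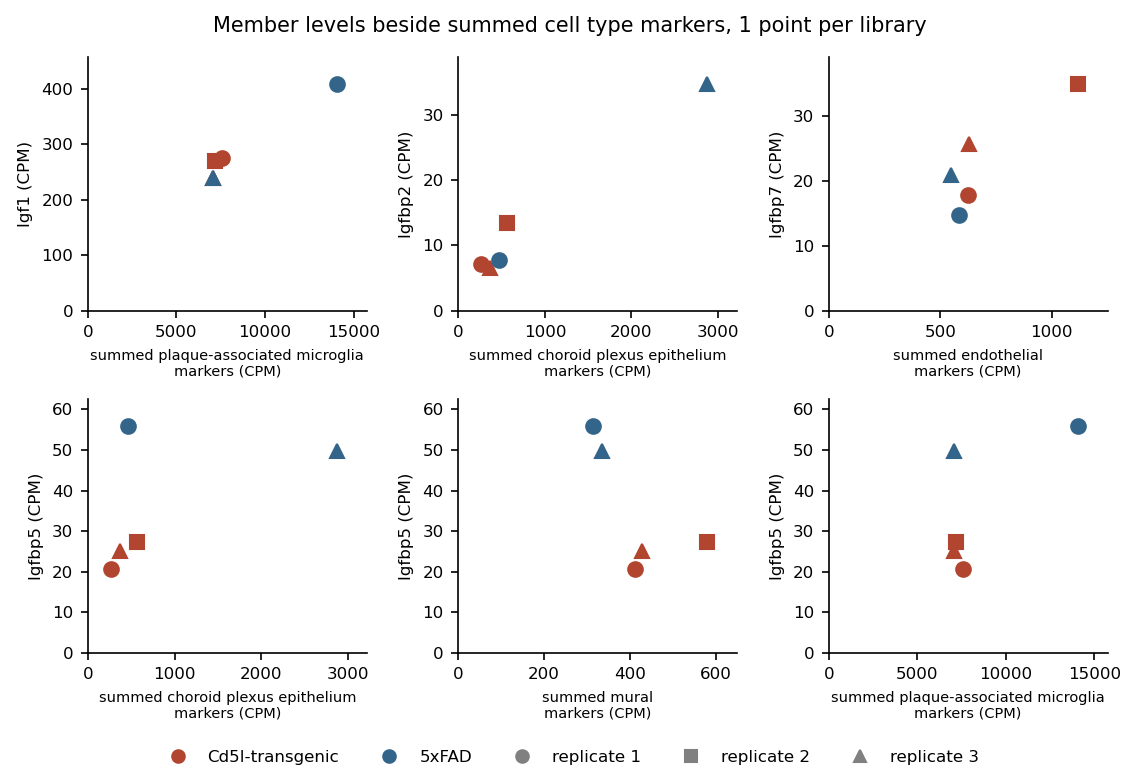
Level of Igf1, Igfbp2, Igfbp7 and Igfbp5 in CPM (y axes) against the summed CPM of a marker list (x axes), 1 point per library, with colour for genotype and shape for replicate number. Igf1 and Igfbp2 are highest in the 5xFAD library with the highest plaque-associated (14054 CPM) and choroid plexus (2875 CPM) sum, respectively. Igfbp5 is at 55.9 and 49.9 CPM in 5xFAD replicates 1 and 3. The part of these cell types in the levels was not tested.

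Among the other binding proteins, all transgenic libraries were above both 5xFAD libraries for Igfbp3 and Igfbp4. Igfbp3 (chromosome 11, 7156086 to 7163923), which encodes the main carrier in blood, had 4.65, 6.24 and 2.54 CPM with the transgene, against 1.63 and 2.20 CPM in 5xFAD. The lowest transgenic library stood close to the higher 5xFAD one, at 84 and 78 counts. The means were 4.48 ± 1.86 CPM (SD, n = 3) with the transgene and 1.91 ± 0.406 CPM (SD, n = 2) in 5xFAD, for a log2 fold change of 1.21 (SE 0.45) that ranged from 0.90 to 1.52 with 1 library left out. Endothelial markers summed to 625, 1117 and 627 CPM with the transgene and 586 and 548 CPM in 5xFAD, and 5 of these 7 markers were, like Igfbp3, above both 5xFAD libraries in all transgenic ones. Of the 10 mural markers 4 were so, against 7.20% of all tested genes. So were 3 of 5 monocyte, 3 of 8 oligodendrocyte and 2 of 8 microglial markers. Of neuron markers 2 of 8 were so, of astrocyte markers 1 of 7, and in the other lists 0. Flt1, the most abundant endothelial marker, overlapped, at 326, 488 and 273 CPM with the transgene and 358 and 254 CPM in 5xFAD. Slco1a4 overlapped as well. Ly6c1, Tek and Kdr were apart by a small margin only. Their lowest transgenic library had 42.9, 27.1 and 42.5 CPM, and their higher 5xFAD library 42.4, 26.3 and 41.1 CPM. The part of endothelial or mural RNA in the Igfbp3 value was not tested.

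Igfbp4 (chromosome 11, 98932070 to 98945218), a carrier that the protease PAPP-A cleaves, differed less but with a small spread. It had 36.6, 38.2 and 45.2 CPM with the transgene, against 30.2 and 32.5 CPM in 5xFAD. The means were 40.0 ± 4.60 CPM (SD, n = 3) with the transgene and 31.3 ± 1.62 CPM (SD, n = 2) in 5xFAD. The log2 fold change of 0.35 (SE 0.12) stayed between 0.27 and 0.41 with 1 library left out. In 7.20% of all tested genes every transgenic library was above both 5xFAD libraries, and in 8.69% every one was below. Among the 9 members these counts were 2 and 1. As Igfbp5 was chosen for this contrast, nothing is read from them.

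Igfbp7, whose product binds IGFs weakly and is found in brain endothelium (chromosome 5, 77497087 to 77555888), had 17.8, 34.8 and 25.7 CPM with the transgene, against 14.7 and 20.9 CPM in 5xFAD. It was highest in Cd5l-transgenic replicate 2, the library with the highest endothelial sum (1117 CPM), and the groups overlapped. The log2 fold change was 0.55 (SE 0.32), or 0.30 without that library and 0.83 without 5xFAD replicate 3. The end of Igfbp7 overlaps Polr2b on the opposite strand, a gene with 1728 to 1843 counts with the transgene and 1678 and 1984 counts in 5xFAD. Igfbp6, a carrier that prefers IGF-II (chromosome 15, 102052797 to 102057946), was low, at 34, 45 and 31 counts with the transgene, against 22 and 69 counts in 5xFAD. Its log2 fold change of -0.27 (SE 0.48) was 0.62 without 5xFAD replicate 3.

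**Figure D3:**
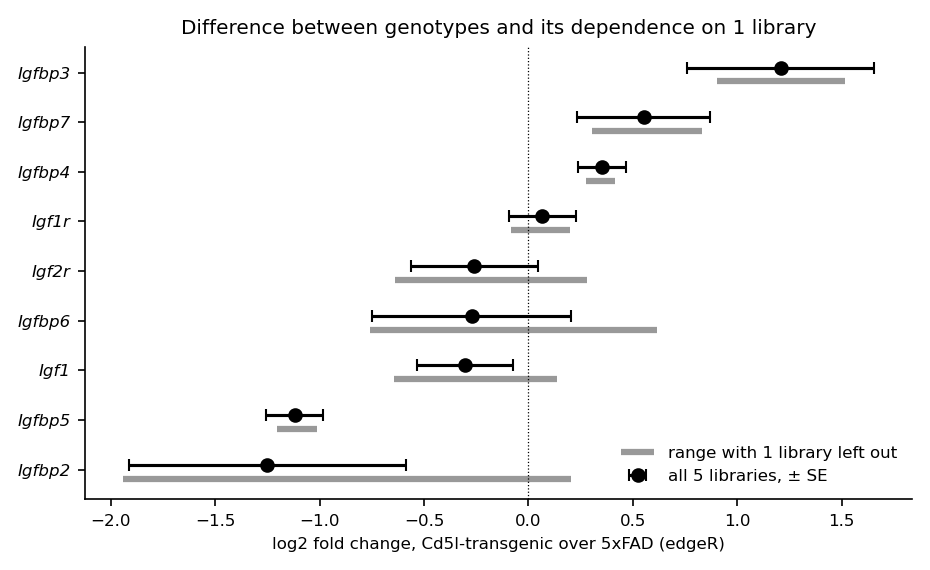
Log2 fold change of each member, Cd5l-transgenic over 5xFAD (x axis), with all 5 libraries (point ± SE) and as the range over the 5 fits that leave out 1 library (grey bar). The bar crosses 0 for Igf1, Igf1r, Igf2r, Igfbp2 and Igfbp6, and stays on one side for Igfbp3, Igfbp4, Igfbp5 and Igfbp7. Igfbp5 was chosen for its difference, so its bar is a description.

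Per length, the ligand and Igfbp7 led the axis. On the scale of CPM per kilobase of the gene length in the table, over all 5 libraries, Igf1 averaged 28.9 ± 7.09 and Igfbp7 18.8 ± 6.51 (SD, n = 5). Their ranges overlapped, with Igf1 the higher in 4 of 5 libraries. Igfbp4 (8.27 ± 1.32), Igfbp2 (7.54 ± 6.47), Igf1r (6.95 ± 0.984) and Igfbp5 (5.95 ± 2.66) followed, each overlapping the next. Of these, Igfbp2 reached 18.8 in 5xFAD replicate 3, above the 17.3 of Igfbp7 in that library, while Igfbp4 did not overlap Igfbp7. Igfbp2 was above Igf1r in 1 of 5 libraries, 5xFAD replicate 3, so its place before Igf1r rests on that library. The place of Igfbp5, which was chosen for its difference, depended on genotype. In 5xFAD it had 9.30 and 8.30, above Igfbp4 (6.84 and 7.35) and Igf1r (6.73 and 6.80). With the transgene it had 3.42, 4.56 and 4.16, below both of these genes in each library. Igfbp5 was above Igf2r in every library without overlap. Igf2r (1.41 ± 0.403), Igfbp6 (1.10 ± 0.423) and Igfbp3 (1.10 ± 0.618) formed the low end. Their ranges overlapped each other, though Igf2r was above Igfbp6 in 5 of 5 libraries.

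The make-up of the carriers is given as a description, since a lower share of Igfbp5 with the transgene follows from its selection. Of the summed CPM per kilobase of the 6 binding proteins, Igfbp5 made up 10.4%, 8.68% and 10.2% in Cd5l-transgenic replicates 1, 2 and 3, against 27.6% and 15.3% in 5xFAD replicates 1 and 3. Igfbp2 took 11.7%, 13.9% and 8.63% with the transgene, against 12.6% and 34.7% in 5xFAD. Igfbp7 was the largest share in 4 of 5 libraries, at 45.0%, 54.8% and 52.0% with the transgene and 36.0% and 31.9% in 5xFAD. Summed without Igfbp5, the other 5 carriers stood at 29.4, 48.0 and 36.7 CPM per kilobase with the transgene and at 24.4 and 45.9 in 5xFAD, so their total overlapped between genotypes.

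**Figure D4:**
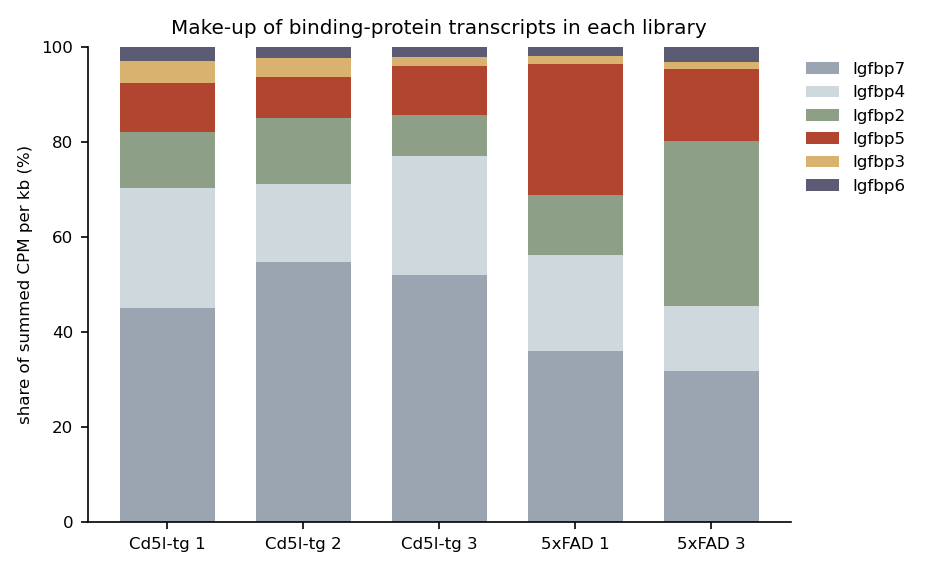
Share of each binding-protein gene in the summed CPM per kilobase of the 6 genes (y axis, percent), as 1 stacked bar per library with the Cd5l-transgenic libraries at left. Igfbp5 takes 8.68% to 10.4% of the transgenic bars and 27.6% and 15.3% of the 5xFAD bars.

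The members varied more between mice of 1 genotype than most genes of like abundance. The pooled within-genotype SD of log2 CPM was 0.99 for Igfbp2, 0.58 for Igfbp6 and 0.56 for Igfbp3. It was 0.44 for both Igf2r and Igfbp7, 0.33 for Igf1 and 0.22 for Igf1r. Among the 1000 genes nearest in mean level, 97.2% had a smaller SD than Igfbp2 and 96.3% a smaller one than Igf1. Igfbp4 and Igfbp5 had the smallest SDs of the 9 members, at 0.14 and 0.19, with 68.5% and 83.6% of such genes below them. For Igfbp3 this share was 74.9%, and the lowest was that of Igfbp6, at 68.2%.

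The wider pathway was measured through 7 lists with 109 genes that are not members, of which 92 passed the low-count filter. In edgeR's quasi-likelihood test with Benjamini-Hochberg adjustment over all 17724 genes, 0 of the 92 passed in either direction (lowest adjusted p = 0.995), and over all genes 0% passed. At an unadjusted p under 0.05 there was 1 gene, Mmp2, against 2.63% of all tested genes. In 12 of the 92, or 13.04%, the genotypes did not overlap (6 higher and 6 lower), against 15.9% of all tested genes. The median log2 fold change of the 92 was -0.01. DESeq2 also called 0 of them, against 0.103% of the genes to which it gave an adjusted p.

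Genes that set how much free ligand there is were 15, of which 9 were measured, with a median log2 fold change of 0.33. Mmp2, a matrix protease that can cut binding proteins, had 31.2, 26.8 and 30.9 CPM with the transgene, against 21.2 and 26.04 CPM in 5xFAD. Its groups did not overlap by a small margin, and its log2 fold change was 0.33 (SE 0.13, edgeR adjusted p = 0.995). The log2 fold change of Mmp2 was 0.19 without 5xFAD replicate 1 and 0.48 without 5xFAD replicate 3. Mmp9, a related protease, stood at 0.73 (SE 0.42), or 0.38 without Cd5l-transgenic replicate 1 and 1.05 without Cd5l-transgenic replicate 3. Ctsd, a lysosomal protease and the most abundant gene of the list, stood at -0.07 (SE 0.19). The second ligand, Igf2, was at 11, 10 and 19 counts with the transgene and at 7 and 43 counts in 5xFAD, highest in the library with most choroid plexus RNA. Igfbp1, which lies 3.54 kb from Igfbp3, had 0 counts in every library, which allows at most 0.0847 to 0.102 CPM in a library.

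Receptor and signalling genes had medians close to 0. The 7 measured receptor genes had a median of -0.01, with log2 fold changes from -0.12 for Lrp1, an endocytic receptor, to 0.10 for Itgb1, an integrin chain. The insulin receptor gene Insr averaged 86.9 ± 4.01 CPM (SD, n = 3) with the transgene and 88.5 ± 3.23 CPM (SD, n = 2) in 5xFAD. All 46 signalling genes were measured and had a median of 0.00018, with 23 above and 23 below 0. Their log2 fold changes ran from -0.66 to 0.44. Rheb, the small GTPase that activates mTOR, stood at -0.15 (SE 0.08), and Inpp5d, the lipid phosphatase SHIP1 of blood-lineage cells, at 0.08 (SE 0.09), or 0.028 without Cd5l-transgenic replicate 1 and 0.13 without Cd5l-transgenic replicate 2, neither past the edgeR test. The adaptor Irs2 averaged 54.4 ± 4.66 CPM with the transgene and 51.9 ± 2.60 CPM in 5xFAD.

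Genes that FOXO factors control, which insulin-type signalling restrains, were 19 with 17 measured. Their median was -0.04, with 6 above and 11 below 0. Cited2, a transcriptional co-regulator, had 105, 101.6 and 157 CPM with the transgene, against 158 and 151 CPM in 5xFAD, so that Cd5l-transgenic replicate 3 was at the 5xFAD level, and its log2 fold change was -0.35 with all libraries, -0.56 without that one and -0.22 without Cd5l-transgenic replicate 2. Pik3ip1, an inhibitor of PI3-kinase, stood at 0.38 (SE 0.23), but at 0.18 without Cd5l-transgenic replicate 2 and 0.60 without 5xFAD replicate 3. Txnip, which restrains glucose uptake, stood at -0.16 (SE 0.14), but at -0.28 without 5xFAD replicate 1 and -0.016 without 5xFAD replicate 3.

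The 7 measured IGFBP-related genes, whose products share the N-terminal fold of the carriers or a part of it, had a median of 0.63, the highest of the 7 lists, with values from -1.19 to 1.21. That median is the value of Kazald1 (SE 0.53), at 50, 81 and 30 counts with the transgene and 41 and 29 counts in 5xFAD. Kazald1 and Htra1 were highest in Cd5l-transgenic replicate 2, Htra1 with 17.6 CPM there and 2.61 to 5.53 CPM in the other libraries. Ccn1 and Ccn2, matricellular proteins, stood at 0.84 (SE 0.63) and 1.10 (SE 0.64), and both were highest in Cd5l-transgenic replicate 2, with 87.3 CPM of Ccn1 and 20.1 CPM of Ccn2. Without that library their log2 fold changes were 0.078 and 0.30, and that of Ccn1 was 0.47 without 5xFAD replicate 1 and 1.34 without 5xFAD replicate 3. In the other transgenic libraries Ccn2 had 6.50 and 5.87 CPM, against 5.39 and 4.77 CPM in 5xFAD. Crim1, a membrane protein of vascular and other cells, had 33.5, 42.6 and 38.2 CPM with the transgene, against 23.5 and 33.3 CPM in 5xFAD, a log2 fold change of 0.42 (SE 0.18) that was 0.20 without 5xFAD replicate 1 and 0.69 without 5xFAD replicate 3. Replicate 2 also had the highest mural sum (581 CPM) and endothelial sum (1117 CPM), whose part in these values was not tested.

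In the growth hormone axis 8 of 9 genes were measured, with a median of -0.16. Socs3, a feedback inhibitor of cytokine receptors, had 315, 230.1 and 364 CPM with the transgene, against 395 and 389 CPM in 5xFAD. Its log2 fold change stood at -0.37 (SE 0.19), at -0.19 without Cd5l-transgenic replicate 2 and at -0.51 without Cd5l-transgenic replicate 3. The growth hormone receptor gene Ghr stood at -0.52 (SE 0.27), with 6.53, 8.22 and 5.57 CPM with the transgene and 11.96 and 7.51 CPM in 5xFAD, and at -0.15 without 5xFAD replicate 1 and -0.82 without 5xFAD replicate 3. Igf2bp2 alone of the 3 IGF2 mRNA-binding protein genes was measured, at -0.09 (SE 0.18).

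**Figure D5:**
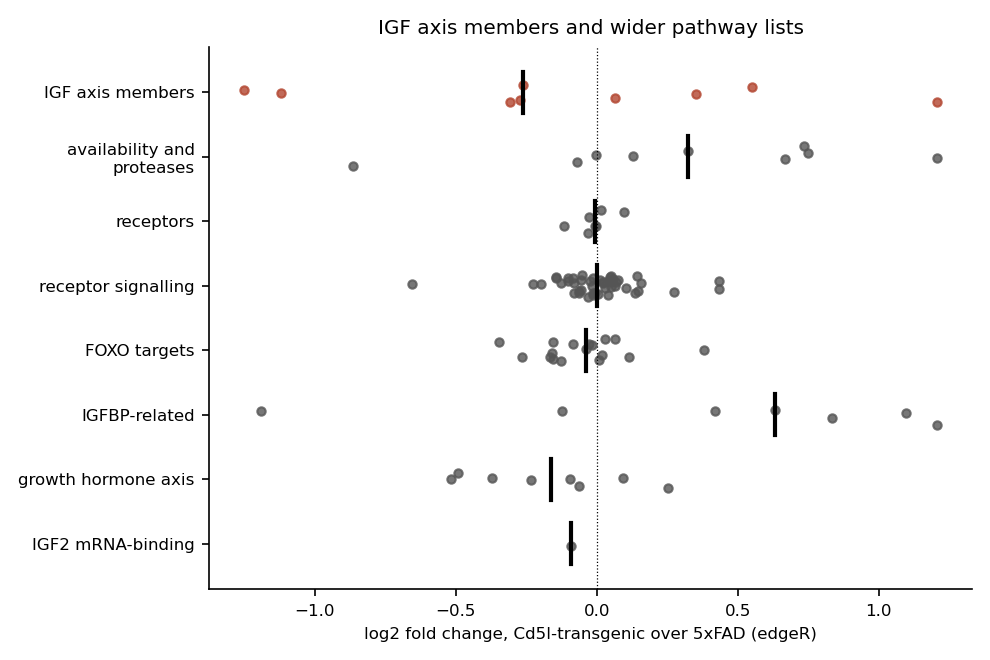
Log2 fold change, Cd5l-transgenic over 5xFAD (x axis), of the 9 members (top row) and of the measured genes of 7 pathway lists, 1 point per gene, with the median as a black bar. The receptor and signalling lists have their medians close to 0, while the IGFBP-related list has its median at 0.63 and the members spread from -1.25 to 1.21.

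Across all 5 libraries, the genes whose centred log2 CPM lay closest to that of Igfbp5 were Armc2, Prkaa2, Cxcr4, Trpm1, Eno2 and Wipf3, out of 10473 named genes whose mean reached 5 CPM. Their root-mean-square distance to Igfbp5 was 0.23 to 0.28 on the log2 scale, against a median of 0.57 over all compared genes. Each was lower in all 3 transgenic libraries than in both 5xFAD libraries, which follows from the choice by likeness. Cxcr4, a chemokine receptor gene, had 50.7, 49.8 and 52.8 CPM with the transgene, against 93.9 and 71.2 CPM in 5xFAD. Prkaa2, which encodes a catalytic chain of the energy-sensing kinase AMPK, had 6.04, 6.62 and 6.84 CPM with the transgene, against 11.1 and 9.45 CPM in 5xFAD. Of the other members Igf1 was the closest, at 0.50 and place 816 in the order of distance, and the remaining 7 lay between 0.57 and 1.19.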

How the data were processed

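The authors deposited raw counts per Ensembl gene in 1 table, with 1 column per library. Per the submitters' processing notes the build was GRCm39 (mm39). No aligner, counting tool, annotation release or strand setting is stated in the labels or the table. The gene length, in the deposited table's own unit of bases, was used for levels per kilobase. Columns were matched to libraries by name, and 1 of them, for Cd5l-transgenic replicate 3, has its letter pairs in the other order.

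Counts were filtered with filterByExpr, scaled by TMM and tested with edgeR 4.0.16 (quasi-likelihood, robust, genotype alone, R 4.3.3), with adjustment over 17724 genes and a threshold of 0.05. Fold changes are Cd5l-transgenic over 5xFAD. Each standard error is the fold change divided by the root of its F value. Log2 CPM used a prior count of 2. Limits at 0 counts use 3 counts per library and cover counting error only. DESeq2 1.42.0 was an alternative.

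On simulated counts of 17724 genes for the same comparison, the edgeR script found 52 of 100 genes with a 2-fold change, 93 of 100 with an 8-fold change, and 15 genes that had none. The simulated counts were drawn independently at the fitted spread, with changes planted only in genes above a set abundance. On the measured counts the same fit called 0 of 17724 genes, so Cd5l itself was not called. The simulated shares are therefore no measure of what the fit finds in these libraries. Members and lists were chosen with earlier results of these data known. Named pathway genes were, per list, the 2 with the smallest unadjusted p and the most abundant, and 1 gene under this rule is not reported here. Of the other genes of the lists named with values, Insr, Irs2, Igf2 and Igfbp1 were named for their place in the pathway after their values were seen. Kazald1 and Htra1 were named, also after their values were seen, for holding the median and highest value of the IGFBP-related list. Irs2, Insr, Igfbp1 and Htra1 are each in more than 1 list. All 9 members had a RefSeq promoter entry; the motifs searched and the windows shown were chosen after the values were seen.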

Additional observations from a re-analysis of the deposited data

How the results depend on the processing

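With all 5 libraries edgeR called 0 of all tested genes, and the DESeq2 Wald test called 15. With 1 library left out, edgeR called 0 to 10 genes, the 10 being found without 5xFAD replicate 1, when a lone 5xFAD mouse is assumed to vary like the other group. Of the wider pathway genes 0 were called under any alternative. Those at an unadjusted p under 0.05 were 1 in the reported fit, 2 with no low-count filter, 4 in DESeq2, 4 with the replicate number as a block, and 0 to 6 with 1 library left out. The cause of these moves was not tested. Over genes, deviations from the group means correlated at 0.13 for replicate 1 and -0.24 for replicate 3. With 2 5xFAD libraries, the deviations of these mirror each other, so both values rest on 1 5xFAD contrast. They cannot decide whether the replicate numbers mark a pairing. Replicate 2 is in the transgenic group alone, so with the replicate number as a block that library adds nothing to the genotype difference. The block is thus close to leaving out Cd5l-transgenic replicate 2 and is no separate check. With the block the log2 fold change of Igfbp5 was -1.22, that of Igf1r was -0.10 and that of Igfbp7 was 0.29. Without Cd5l-transgenic replicate 2 they were -1.20, -0.08 and 0.30. Of the named pathway genes, 3 turned sign with 1 library left out: Ctsd ranged from -0.30 to 0.20, Lrp1 from -0.30 to 0.091 and Igf2bp2 from -0.25 to 0.092. With the block, Ccn1 stood at 0.12, Ccn2 at 0.28, Pik3ip1 at 0.18, Txnip at -0.056, Socs3 at -0.21 and Lrp1 at -0.049. The older quasi-likelihood method of edgeR, chosen after seeing the data, changed no call. Igfbp3 and Igfbp6 have no value under the filter of 5 CPM in 2 libraries, as they fall below it. With 3 mice against 2, a count of 0 does not show that genes were unchanged.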
